A study of Mus musculus with 10 samples.

Results

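Messenger RNA levels of 8 integrin subunits were followed in naive mouse CD8+ T cells of Ikaros-Zn4-/- and wild type (WT) mice before and after stimulation. They are Itgal, Itgam, Itgae, Itga4 and Itga6, which encode alpha chains, and Itgb2, Itgb7 and Itgb1, which encode beta chains. They were chosen by name, with earlier results of these data known. All 8 were found among the 12637 genes of the deposited table. Each genotype contributed 5 libraries, of which 2 were of unstimulated cells (0 min), 2 of cells stimulated for 30 min and 1 of cells stimulated for 120 min. In Ikaros-Zn4-/- mice both alleles of the Ikaros gene lack the part that encodes zinc finger 4 of the DNA-binding domain. The deletion is carried in the germ line, so it is not restricted to T cells. All mice were C57Bl/6 females of 6 weeks, and the cells of both genotypes were sorted from spleen by CD8, high CD62L and low or absent CD44. Cells at 30 and 120 min had been kept on plate-bound antibodies to CD3 and CD28, whereas those at 0 min were unstimulated. No integrin was used in the sort. The labels do not say whether libraries, within a group or at different times, came from different mice. The spread between libraries of a group may therefore be technical.

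Integrins are surface receptors made of 1 alpha and 1 beta chain, and neither chain reaches the cell surface without a partner. On T cells Itgal and Itgb2 together form LFA-1, which binds ICAM proteins and holds a T cell to the cell it inspects. Itga4 pairs with Itgb1 to form VLA-4, a receptor for VCAM-1 and fibronectin, or with Itgb7 to form the receptor for the gut homing ligand MAdCAM-1. Itgae pairs with Itgb7 and binds E-cadherin on epithelium, Itga6 pairs with Itgb1 and binds laminin, and Itgam pairs with Itgb2 to form Mac-1, which is best known from myeloid and natural killer cells. Signals from the T cell receptor switch integrins from a weakly to a strongly binding shape within minutes through the GTPase Rap1, talin and kindlin, a step that needs no new mRNA.

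The identity of the cells was checked first. All 8 CD8 T cell markers were in the table. Their summed level was 1796 to 5382 RPKM in Ikaros-Zn4-/- libraries and 1556 to 4638 RPKM in WT libraries. RPKM are reads scaled to a length per gene and to library size. Naive T cell markers were present as 7 of 7, at 1373 to 2255 RPKM in the mutant and 1651 to 2392 RPKM in WT. Ikzf1, which encodes Ikaros, had 206 to 263 RPKM in Ikaros-Zn4-/- libraries and 134 to 171 RPKM in WT libraries, and its level does not show whether the deleted part is absent. The depth was 4.50 to 13.3 M reads in Ikaros-Zn4-/- libraries and 5.82 to 11.6 M reads in WT libraries, recovered from the steps of the deposited values. The integrin subunits had 275 to 16092 reads per library, except Itgam with 30 to 137 reads in Ikaros-Zn4-/- libraries and 8 to 21 in WT libraries. In bulk RNA fewer cells that express a gene and less of its RNA per cell cannot be told apart.

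In GENCODE M21 (GRCm38) the genes are spread over 6 chromosomes. Itgal (chr7:127296260-127335138) and Itgam (chr7:128062640-128118491) lie on the same chromosome, as do Itga4 (chr2:79255426-79333123) and Itga6 (chr2:71745616-71858416), all on the plus strand. Itgae is at chr11:73090583-73147446, Itgb2 at chr10:77530252-77565708 and Itgb1 at chr8:128685654-128733200, also on the plus strand. Itgb7, at chr15:102215995-102231944, is on the minus strand. Each value sums reads over a whole gene, so transcript isoforms are not separated.

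Because the mutation lies in a DNA-binding domain, the sequence before the start of Itga4 and Itgb1 is shown. These subunits of VLA-4 are a pair whose levels differed between genotypes in opposite directions. Each stretch is the 250 bases before the gene's start in RefSeq (GRCm38.p6), read 5′ to 3′ on the gene's own strand. Capitals mark GGGAA, the core of the sequence that Ikaros binds, on either strand, so that a match on the other strand reads TTCCC.
Itga4, chr2:79255176-79255425, plus strand: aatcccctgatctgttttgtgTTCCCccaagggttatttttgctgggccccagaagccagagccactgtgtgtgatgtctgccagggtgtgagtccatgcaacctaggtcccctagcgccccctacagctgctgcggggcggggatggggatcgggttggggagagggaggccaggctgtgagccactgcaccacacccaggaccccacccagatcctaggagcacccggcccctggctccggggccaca
Itgb1, chr8:128685404-128685653, plus strand: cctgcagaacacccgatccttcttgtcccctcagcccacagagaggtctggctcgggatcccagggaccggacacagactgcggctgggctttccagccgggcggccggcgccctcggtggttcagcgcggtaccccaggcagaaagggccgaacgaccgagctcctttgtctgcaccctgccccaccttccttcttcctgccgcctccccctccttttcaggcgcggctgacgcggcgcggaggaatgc
Itga4 held 1 match, on the other strand, which began 229 bases before the start, and Itgb1 held 0. Itgam (chr7:128062390-128062639, plus strand) and Itgb7 (chr15:102231936-102232185, minus strand) also held 0. Of 32851 such promoter windows, 56.2% held at least 1 match. A longer form, TGGGAA or TTCCCA, contains the first and was found in 21.6% of windows and in 0 of these 4. The RefSeq promoter table matched 4 of the 8 subunits.

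The levels of the subunits in resting cells spanned a wide range. RPKM is scaled by a length per gene, and the lengths used are not stated, so the order of levels between genes depends on them. Whole reads came out with 13978 bases for Itga4 and 4081 for Itgb1, their exon lengths in GENCODE M21. In resting Ikaros-Zn4-/- cells the order was Itgb7 at 443 ± 3.69 RPKM, Itgb2 at 252 ± 4.07, Itgal at 149.6 ± 1.19, Itgae at 87.0 ± 10.7, Itgb1 at 24.3 ± 1.81, Itga4 at 18.9 ± 0.264, Itga6 at 14.1 ± 1.21 and Itgam at 1.33 ± 0.401 (mean and SD, n = 2 libraries). In resting WT cells it was Itgb7 at 386 ± 4.59 RPKM, Itgb2 at 178 ± 4.56, Itgal at 125 ± 3.79, Itgae at 72.3 ± 2.83, Itga4 at 33.7 ± 1.66, Itga6 at 12.3 ± 1.92, Itgb1 at 11.4 ± 2.99 and Itgam at 0.242 ± 0.0921 (n = 2). Itga6 and Itgb1 did not differ beyond their spread in WT cells. Itgb1 stood above Itga4 in the mutant and below it in WT. Itgb7 ranked 62nd of all genes of the table in resting WT cells, and Itgb2 ranked 160th.

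**Figure D1:**
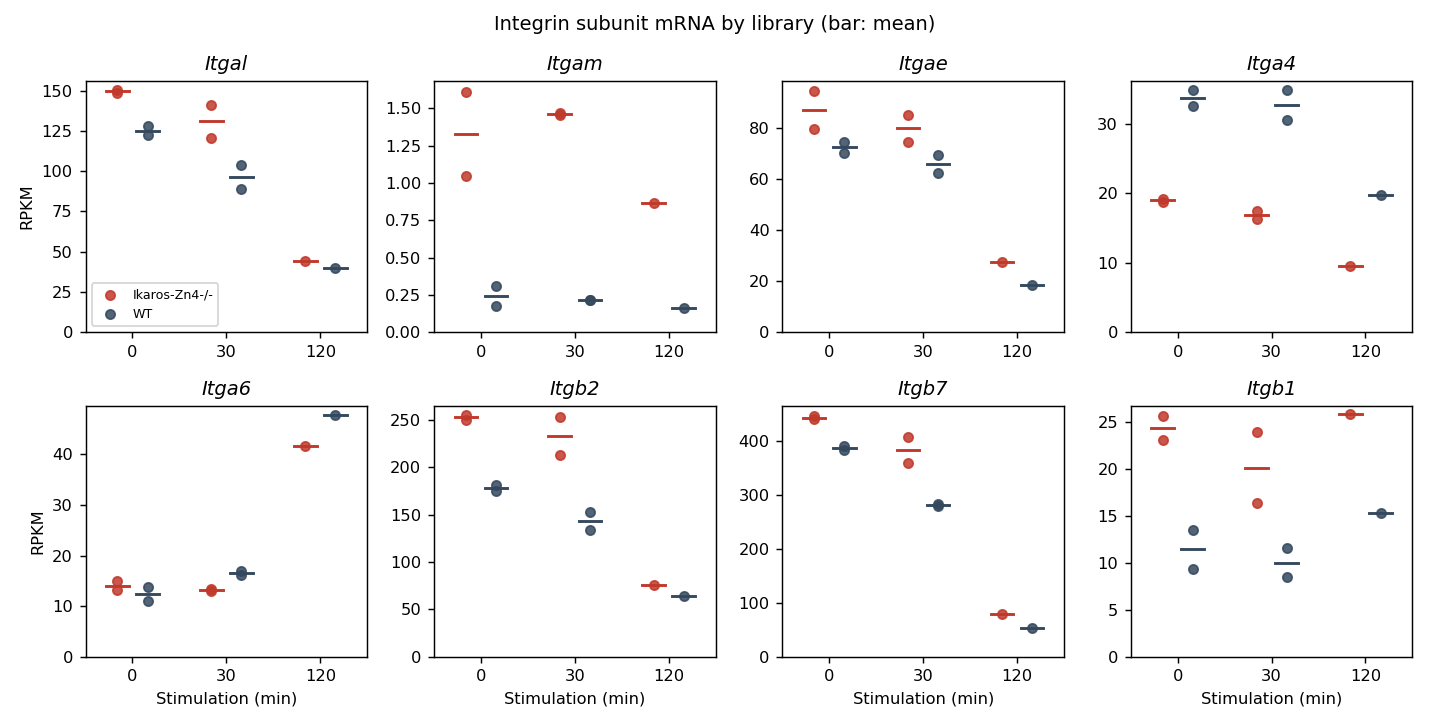
RPKM of each integrin subunit (vertical axes, each from 0) against minutes of stimulation, with Ikaros-Zn4-/- libraries in red left of WT libraries in dark blue; points are libraries and bars are group means. Itga4 lies lower and Itgb1 and Itgam lie higher in all 5 mutant libraries, while Itgb7, Itgb2, Itgal and Itgae are low and Itga6 is high at 120 min in both genotypes.

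The first comparison was that of genotypes. It was made with limma on log2(RPKM + 1) over all times, 5 libraries against 5, with genotype and time as terms. The fit treats the 5 libraries of a genotype as independent, although libraries of different times may share mice. A gene was called at an adjusted p below 0.05 (Benjamini-Hochberg over the 12203 genes tested). Of the 8 subunits 5 were called, 4 higher and 1 lower in Ikaros-Zn4-/- cells. Among all genes tested 9.42% were called, 6.19% higher and 3.24% lower. The count includes Itgam, which had to differ to be in the table. Without it 4 of 7 were called, 3 higher and 1 lower, with a median log2 difference of 0.32, beside 0.01 for all genes. A median of 0.31 was found for the 8 CD8 T cell markers, with 2 called higher and 0 lower. For the 7 naive T cell markers it was -0.08, with 0 called. A shift of this size is thus not particular to the integrin subunits.

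Itga4, the alpha chain of VLA-4, was the subunit that was lower in the mutant. Ikaros-Zn4-/- cells had 19.1 and 18.8 RPKM before stimulation, then 17.4 and 16.2 at 30 min and 9.55 at 120 min. WT cells had 32.5 and 34.9 RPKM before stimulation, then 30.5 and 34.9 at 30 min and 19.7 at 120 min. Every mutant library lay below all 5 WT libraries, as was the case for 0.844% of genes tested. The highest mutant library, at 0 min, had 19.1 RPKM, which was close to the WT library at 120 min. The log2 difference over all times was -0.88 (SE 0.08, limma adjusted p = 0.000103). It was called under each of the 17 alternatives tried. It was the subunit called at single times too, where 2.47% of all genes were called at 0 min, 0.557% being lower, and 2.61% at 30 min, 0.606% lower. Its difference was -0.80 at 0 min (adjusted p = 0.0205) and -0.91 at 30 min (adjusted p = 0.0123). Leaving out any of the 4 libraries compared at 0 min ended the call there, with adjusted p from 0.0957 to 0.148. At 30 min the call ended without Ikaros-Zn4-/- replicate 2 (adjusted p = 0.0869), without WT replicate 1 (adjusted p = 0.0561) and without WT replicate 2 (adjusted p = 0.11). A spread taken from the compared groups alone ended both, with adjusted p = 0.084 at 0 min and 0.109 at 30 min. The level per genotype at 120 min rests on 1 library each and was not tested, with a ratio of mutant to WT of 0.484. In GENCODE M21, 1124 exon bases of Itga4 are shared with Cerkl on the opposite strand, and the library kit does not mark strand.

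Itgb1, the beta chain that pairs with Itga4 in VLA-4 and with Itga6, was higher in the mutant. In Ikaros-Zn4-/- cells it had 23.1 and 25.6 RPKM before stimulation, then 16.4 and 23.9 at 30 min and 25.9 at 120 min, against 9.33 and 13.6 RPKM before stimulation, then 8.50 and 11.6 at 30 min and 15.3 at 120 min in WT cells. The genotypes did not overlap, with all 5 mutant libraries above all 5 WT libraries, as for 2.7% of genes tested. The log2 difference was 0.93 (SE 0.14, limma adjusted p = 0.00347), called under each of the 17 alternatives. For 0 min alone it was 1.05 (adjusted p = 0.0979) and at 30 min alone 0.93 (adjusted p = 0.121), neither past the threshold, while 2 of 18 alternatives called it at each time, with adjusted p down to 0.0111 and 0.0175.

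Itgam, the alpha chain of Mac-1, was near the lower limit of the table in WT cells. It had 1.61 and 1.04 RPKM before stimulation, then 1.46 and 1.47 at 30 min and 0.869 at 120 min in Ikaros-Zn4-/- cells. The WT values were 0.307 and 0.176 RPKM before stimulation, then 0.216 and 0.216 at 30 min and 0.164 at 120 min. The mutant libraries all lay above the WT libraries. As whole reads these values were 137 and 30, 95 and 54, and 51 in the mutant libraries, against 21 and 10, 16 and 8, and 11 in the WT libraries. At such depth the 95% Poisson interval, for counting error alone, was 0.647 to 1.14 RPKM for the lowest mutant library and 0.190 to 0.469 RPKM for the highest WT library. The level ratio of mutant to WT was 5.50 at 0 min, 6.77 at 30 min and 5.29 at 120 min. On the log2(RPKM + 1) scale, which compresses such low values, the difference was 0.90 (SE 0.13, limma adjusted p = 0.00272), and with a pseudocount of 0.1 it was 2.12. All genes of the table have a group mean of 1 RPKM or more somewhere, and Itgam has one only in the mutant at 0 and 30 min. It therefore had to differ to be listed at all, and no support is drawn from its call. In GENCODE M21 it shares 3450 exon bases with the overlapping gene model Gm49368 on the same strand.

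Markers of other cell types that carry Mac-1 were looked up beside Itgam. Of 10 myeloid markers 3 were in the table (Lyz2, Cst3 and Ly6c2), with a summed level of 15.9 to 54.4 RPKM in Ikaros-Zn4-/- libraries and 10.3 to 39.3 RPKM in WT libraries. The other 7, among them Csf1r, Cd14 and Adgre1, were not in the table under these names, and its filter is not stated. Ly6c2, which activated and memory CD8 T cells also express, was higher in the mutant by 1.09 (adjusted p = 0.00186). Cst3 had 6.52 to 19.6 RPKM in the mutant and 7.75 to 23.6 RPKM in WT (adjusted p = 0.897), and Lyz2 had 0.822 to 14.1 RPKM in the mutant and 0.226 to 4.05 RPKM in WT (adjusted p = 0.341), so neither was called. Of 7 natural killer cell markers 3 were in the table (Gzma, Klrk1 and Eomes), with a sum of 13.6 to 35.5 RPKM in the mutant and 2.65 to 11.005 RPKM in WT. Gzma, the protease granzyme A, had 2.10 to 9.28 RPKM in mutant libraries and 0 to 0.212 RPKM in WT libraries, and like Itgam it is listed through its mutant level alone. Eomes, a T-box transcription factor of natural killer and memory CD8 T cells, had 10.6 to 28.6 RPKM in the mutant and 1.90 to 9.39 RPKM in WT. Klrk1, which encodes the receptor NKG2D, did not go with them, at 0.602 to 1.39 RPKM in the mutant and 0.559 to 1.72 RPKM in WT (adjusted p = 0.837). The natural killer genes Ncr1, Klrb1c, Klra8 and Klre1 were not in the table under these names. Neither was any of the 6 dendritic cell markers, Itgax among them. The part of such cells in the Itgam difference was not tested.

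Itgb2, the beta chain shared by LFA-1 and Mac-1, was also higher in the mutant. It had 255 and 249.5 RPKM before stimulation, then 213 and 253 at 30 min and 75.3 at 120 min in Ikaros-Zn4-/- cells. In WT cells it had 175 and 182 RPKM before stimulation, then 134 and 153 at 30 min and 63.6 at 120 min. The genotypes were separate within each time, although the 120 min libraries of both lay below all others. The log2 difference over all times was 0.53 (SE 0.10, limma adjusted p = 0.00993), called under each of the 17 alternatives.

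Itgal, the alpha chain that completes LFA-1, had 149 and 150.4 RPKM before stimulation, then 121 and 141 at 30 min and 44.5 at 120 min in Ikaros-Zn4-/- cells. In WT cells it had 123 and 128 RPKM before stimulation, then 88.6 and 104 at 30 min and 39.7 at 120 min. Every mutant library lay above the WT libraries of its time. The log2 difference of 0.31 (SE 0.09, limma adjusted p = 0.0595) missed the threshold, and 3 of 17 alternatives called it.

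Itgb7, the beta chain of the gut homing receptors, had 440.0 and 445 RPKM before stimulation, then 359.6 and 407 at 30 min and 79.6 at 120 min in Ikaros-Zn4-/- cells. WT cells reached 389.7 and 383 RPKM before stimulation, then 279 and 282 at 30 min and 53.5 at 120 min. The mutant was higher at each time, by 0.37 over all times (SE 0.09, limma adjusted p = 0.0336). That call was near the threshold. Leaving out any library but Ikaros-Zn4-/- 0 min replicate 1 ended it, with adjusted p up to 0.105, as did quantile normalization (adjusted p = 0.0542). Over the alternatives the difference itself stayed between 0.29 and 0.40.

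Itgae, the alpha chain of the E-cadherin receptor, had 94.5 and 79.4 RPKM before stimulation, then 85.2 and 74.6 at 30 min and 27.6 at 120 min in Ikaros-Zn4-/- cells. WT cells held 70.3 and 74.3 RPKM before stimulation, then 62.4 and 69.4 at 30 min and 18.4 at 120 min. The mutant libraries were the higher ones at each time, but the difference of 0.32 (SE 0.09, limma adjusted p = 0.0566) was not called, and 2 of 17 alternatives called it. Itga6, the laminin receptor chain, showed no common direction across times. It had 13.2 and 14.9 RPKM before stimulation, then 13.4 and 13.1 at 30 min and 41.6 at 120 min in Ikaros-Zn4-/- cells. Its WT levels were 10.99 and 13.7 RPKM before stimulation, then 17.1 and 16.1 at 30 min and 47.8 at 120 min. Its difference over all times was -0.09 (SE 0.11, adjusted p = 0.689).

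**Figure D2:**
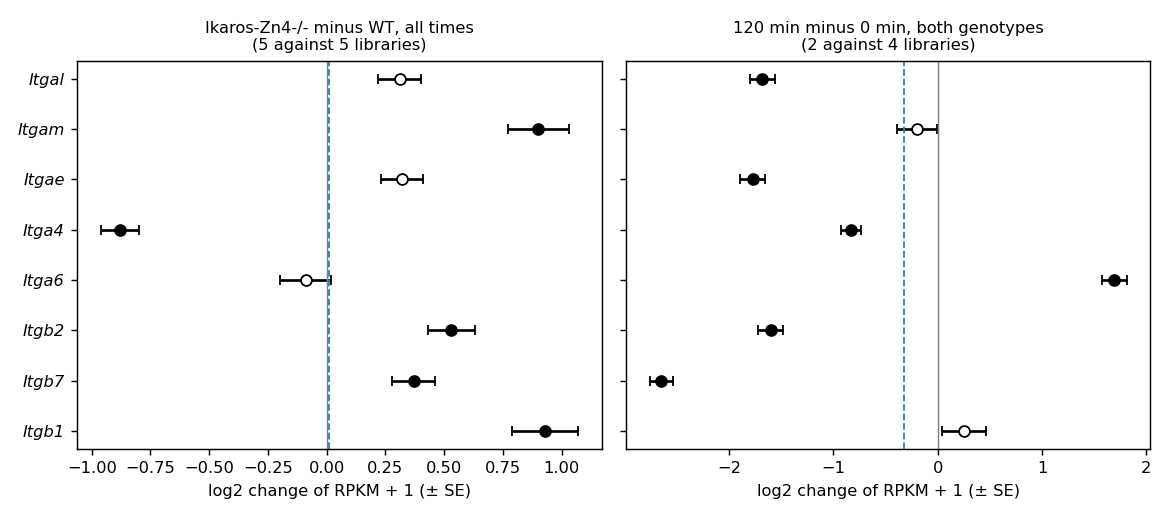
Log2 change of each subunit with its SE (horizontal axes, which differ in range), for Ikaros-Zn4-/- minus WT over all times on the left and 120 min minus 0 min on the right. Filled points were called at an adjusted p below 0.05, open points were not, and the dashed line is the median of all genes tested (0.01 and -0.32). Itga4 stands alone on the negative side of the left panel among called subunits, and among called subunits Itga6 stands alone on the positive side of the right panel.

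The second comparison was that of times. At 120 min against 0 min, in 2 libraries against 4 over both genotypes, 5 of the 8 subunits fell and 1 rose. Among all genes 59.7% were called, 40.4% lower and 19.3% higher, so the number of subunits called is near the background. Median ratio scaling split the calls of all genes into 3635 higher and 3659 lower. The size of the change differed between subunits and is set beside that of all genes below. The median change was -1.22 for the subunits and -0.32 for all genes. Each change is given on the deposited scale, which the test uses, and then relative to that median of all genes.

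Itgb7 fell furthest among the subunits. At 120 min it had 18.0% of its 0 min level in Ikaros-Zn4-/- cells and 13.8% in WT cells. Its log2 change was -2.65 (SE 0.11, limma adjusted p = 3.23e-05), or -2.33 relative to all genes, and 0.68% of genes had a lower value. Itgae, its partner in the E-cadherin receptor, kept 31.7% of its level in the mutant and 25.4% in WT, a change of -1.77 (SE 0.12, adjusted p = 5.48e-05; -1.45 relative). The chains of LFA-1 fell by similar amounts. Itgal changed by -1.68 (SE 0.12, adjusted p = 6.05e-05; -1.36 relative) and kept 29.7% in the mutant and 31.7% in WT. Itgb2 changed by -1.60 (SE 0.12, adjusted p = 7.59e-05; -1.29 relative) and kept 29.8% in the mutant and 35.7% in WT. Of all genes 5.9% had a lower value than Itgae, 6.95% than Itgal and 8.06% than Itgb2. For each of these 4 genes, Itgb7 included, both 120 min libraries lay below all 4 libraries at 0 min, as for 43.3% of genes tested. Itga6 belonged to the 22.1% whose libraries lay above.

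Itga4 fell less, with a log2 change of -0.83 (SE 0.10, adjusted p = 0.000508; -0.51 relative), to 50.4% of its 0 min level in the mutant and 58.6% in WT. A lower value than that of Itga4 was found for 29.2% of genes. The Itga4 levels at 120 and 0 min overlap only across genotypes, as the WT library at 120 min lay above the mutant libraries at 0 min. Itga6 rose, to 41.6 RPKM in the mutant at 120 min against 14.1 ± 1.21 RPKM at 0 min, and to 47.8 RPKM in WT against 12.3 ± 1.92 RPKM. The log2 change was 1.69 (SE 0.12, adjusted p = 6.1e-05; 2.01 relative), and 2.61% of genes had a higher value. Itgb1 had 0.25 (SE 0.21, adjusted p = 0.346; 0.57 relative). After scaling by the median ratio between libraries its change was 0.64 (adjusted p = 0.0173), and over all its alternatives the adjusted p ran from 0.0173 to 0.833. Itgam had -0.20 (SE 0.19, adjusted p = 0.39). The 6 calls were made under every alternative in which they were tried, including those that leave out the 120 min library of 1 genotype. The CD8 T cell markers also moved at 120 min, with 8 of 8 lower, beside 40.4% of all genes. Their median was -2.06, Cd8a at -3.14 among them, and their part in the falls above was not tested.

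Most of this took place after 30 min. At 30 min against 0 min, 4 libraries against 4, 1 of 8 subunits was called. Of all genes 19% were, with 6.51% higher and 12.5% lower, a split that was 1118 genes higher and 836 lower after median ratio scaling. Itgb7 fell by 0.33 (SE 0.09, adjusted p = 0.0475; -0.20 relative). Leaving out any library but Ikaros-Zn4-/- 30 min replicate 2 ended this call, with adjusted p of 0.0507 to 0.137, and so did median ratio scaling (adjusted p = 0.164) and a spread taken from the compared groups (adjusted p = 0.0554). The other 7 subunits changed by -0.29 (Itgal) to 0.16 (Itga6), none past the threshold. From 30 to 120 min 6 of 8 were called, beside 48.2% of all genes. Itgb7 changed by -2.31, Itgae by -1.64, Itgal by -1.39, Itgb2 by -1.38, Itga4 by -0.73 and Itga6 by 1.53 (limma adjusted p from 0.000117 to 0.00149). Itgb1 had 0.48 (adjusted p = 0.107) and Itgam -0.23 (adjusted p = 0.342).

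Within single genotypes at 30 min limma called 0 of 8 subunits in Ikaros-Zn4-/- cells, beside 2.74% of all genes, and 0 of 8 in WT cells, beside 6.03%. At an unadjusted p below 0.05 there were 0 subunits in the mutant, beside 2749 of 12203 genes, and 3 in WT, beside 3349. Limma-voom on recovered reads called 0 and 1, beside 973 and 1815 of 12140 genes. Whether the 30 min response differed between genotypes was tested directly. Limma called 0% of the 12203 genes, with 656 at an unadjusted p below 0.05, 0 calls by limma-voom on recovered reads and 1 call without WT 0 min replicate 2. Of the subunits Itga6 had the largest value, -0.49 (SE 0.20, unadjusted p = 0.0431, adjusted p = 0.876). It had a level of 13.4 and 13.1 RPKM at 30 min in the mutant, against 13.2 and 14.9 RPKM at 0 min, and of 17.1 and 16.1 RPKM in WT, against 10.99 and 13.7 RPKM at 0 min.

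Because each receptor needs both chains, the ratio of partner levels was described in each library, with no test. The size of a ratio depends on the gene lengths used, which are not stated, while its comparison between libraries does not. The ratio of Itga4 to Itgb1, the chains of VLA-4, was 0.830 and 0.732 at 0 min, 1.07 and 0.679 at 30 min and 0.369 at 120 min in Ikaros-Zn4-/- cells. In WT cells it was 3.48 and 2.57 at 0 min, 3.59 and 3.01 at 30 min and 1.29 at 120 min. Every mutant value lay below every WT value. This had to be so, because Itga4 was lower and Itgb1 higher in every mutant library than in any WT library. In both genotypes the 120 min library had the lowest ratio. The ratio of Itga4 to Itgb7 was 0.0399 to 0.120 in the mutant and 0.0834 to 0.369 in WT, with the highest value at 120 min in each. Itgal and Itgb2 kept a steadier ratio, from 0.560 to 0.603 in the mutant and from 0.624 to 0.704 in WT, across a fall of both at 120 min. Itgae to Itgb7 lay between 0.178 and 0.347 in the mutant and between 0.180 and 0.344 in WT, highest at 120 min in both. Itga6 to Itgb1 was 0.548 to 1.61 in the mutant and 1.01 to 3.12 in WT, again highest at 120 min.

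The make-up of the chains was then read as shares, which also depend on the gene lengths used. Of the summed RPKM of the 3 beta chains, Itgb7 made up 59.6% to 61.8% at 0 and 30 min in Ikaros-Zn4-/- libraries and 63.2% to 67.9% in WT libraries. At 120 min its share was 44.0% in the mutant and 40.4% in WT. Itgb1 held 2.78% to 3.56% at the earlier times in the mutant and 1.63% to 2.59% in WT, and 14.3% and 11.6% at 120 min. Among the 5 alpha chains Itga6 held 4.77% to 5.64% at the earlier times in the mutant and 4.64% to 8.58% in WT. At 120 min it held 33.5% in the mutant and 38.0% in WT. Itga4 held 6.58% to 7.70% of the alpha chains over all mutant libraries and 13.7% to 15.7% over all WT libraries, which do not overlap.

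**Figure D3:**
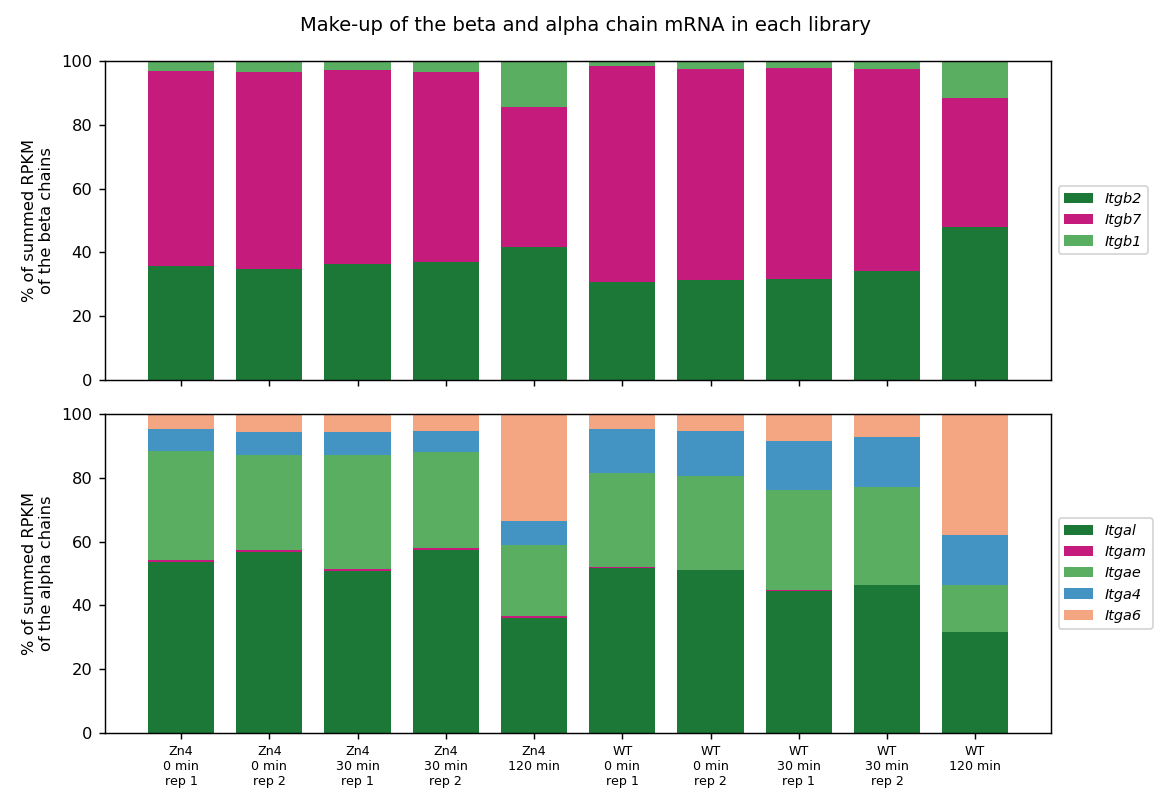
Stacked bars give the share of each gene (vertical axis, percent) in the summed RPKM of the 3 beta chains (top) and the 5 alpha chains (bottom) in each library, Ikaros-Zn4-/- (Zn4) on the left and WT on the right. At 120 min the Itgb7 share is 44.0% in the mutant and 40.4% in WT, and Itga6 takes 33.5% and 38.0% of the alpha chains.

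Other integrin subunits were read beside these. Of a list of 19, 5 were in the table (Itga3, Itga5, Itga10, Itgav and Itgb3). Itgb3, which pairs with Itgav in a vitronectin receptor, was called in both comparisons. It had 25.8 and 23.0 RPKM before stimulation, then 13.6 and 13.5 at 30 min and 2.74 at 120 min in Ikaros-Zn4-/- cells, while WT cells had 4.81 and 3.49 RPKM before stimulation, then 2.82 and 2.27 at 30 min and 0.807 at 120 min. At each time the mutant was higher, by 1.95 over all times (SE 0.18, adjusted p = 0.000161), and at 120 min against 0 min it changed by -2.13 (SE 0.15, adjusted p = 5.71e-05). Platelets carry much of this chain, and none of 7 platelet and erythroid markers, among them Pf4 and Itga2b, was in the table under its name. The part of platelets was not tested. Itga5, the alpha chain of the fibronectin receptor, rose by 1.65 at 120 min (SE 0.26, adjusted p = 0.00136), and Itga10, listed through its levels at 0 and 30 min alone, fell by 1.07 (adjusted p = 0.00526). Of the 5 genes 1 was higher and 0 were lower in the mutant, beside 6.19% and 3.24% of all genes. Their median difference was 0.08.

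The machinery that switches integrins on was described from a list of 24 genes, of which 21 were tested. In the mutant 3 were higher and 1 was lower, beside 6.19% higher and 3.24% lower among all genes. The median was 0.02, beside 0.01 for all genes. Tln2, a talin, had 3.97 to 5.52 RPKM in Ikaros-Zn4-/- libraries and 0.0566 to 0.122 RPKM in WT libraries, a difference of 2.43 (SE 0.10, adjusted p = 1.34e-06). It is listed through its mutant level alone, so it had to differ, and it is among the 3 counted as higher. Rasgrp2, an exchange factor that loads Rap1, was lower by 0.81 in mutant cells (adjusted p = 0.00511), and the T cell adaptor Lcp2 was higher by 0.43 (adjusted p = 0.0169). Quantile normalization ended the Lcp2 call, as did leaving out WT 0 min replicate 1, WT 30 min replicate 1 or either 120 min library, with adjusted p up to 0.054. Rasgrp1, a Ras exchange factor, was higher by 0.34 (adjusted p = 0.037), and leaving out any library but Ikaros-Zn4-/- 30 min replicate 2 and WT 30 min replicate 1 ended that call, as did median ratio scaling and quantile normalization, with adjusted p up to 0.156. At 120 min 4 of the 21 were higher and 9 lower, with a median of -0.20, which is close to the background of 19.3% higher and 40.4% lower among all genes. Fermt3, or kindlin-3, fell by 1.62 (SE 0.13, adjusted p = 8.45e-05), and Tln1, the main talin of leukocytes, fell by 1.02 (SE 0.13, adjusted p = 0.000596). Rasgrp2 fell by 0.99 (adjusted p = 0.000831) and the exchange factor Vav1 by 0.92 (adjusted p = 0.000215). Rapgef2, which also loads Rap1, rose by 1.24 (adjusted p = 0.000942).

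Among 13 negative regulators of integrins and Rap1, 12 were tested. In mutant cells 2 were higher and 0 lower, beside 6.19% higher and 3.24% lower among all genes. Rap1gap2, which inactivates Rap1, had 4.69 to 15.5 RPKM in Ikaros-Zn4-/- libraries and 0.517 to 3.77 RPKM in WT libraries, a difference of 1.87 (SE 0.20, adjusted p = 0.000355). Flna, or filamin A, which competes with talin for beta chains, was higher by 0.33 (adjusted p = 0.0333). Leaving out any library but Ikaros-Zn4-/- 0 min replicate 2 ended that call, as did median ratio scaling and quantile normalization, with adjusted p up to 0.095. At 120 min 9 of 12 fell and 3 rose, with a median of -0.59, beside 40.4% lower, 19.3% higher and a median of -0.32 among all genes. Dok2, an adaptor, fell by 2.29 (adjusted p = 4.01e-05), Itgb1bp1, which binds the tail of Itgb1, fell by 1.54 (adjusted p = 0.000551), Flna fell by 1.36 (adjusted p = 9e-05) and Rap1gap2 by 1.20 (adjusted p = 0.0108). The Rap1gap2 call was lost after quantile normalization and without the mutant 120 min library, with adjusted p up to 0.0664. Arap2 rose by 1.09 (adjusted p = 0.000701).

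Adhesion adaptors and kinases link integrin tails to actin. Of 21 in the list 14 were tested, and 1 was higher and 1 lower in the mutant, beside 6.19% and 3.24% of all genes. Lpxn, a paxillin relative, was higher by 0.44 (adjusted p = 0.0122), and Lims1, a partner of integrin-linked kinase, was lower by 0.67 (adjusted p = 0.00444). At 120 min 3 rose and 3 fell, with a median of 0.14, beside 19.3% higher and 40.4% lower among all genes. Vcl, or vinculin, had 10.3 RPKM in the mutant and 9.04 RPKM in WT at 120 min, against 0.264 to 0.679 RPKM in the 8 earlier libraries, a change of 2.83. It is listed through its 120 min level alone, so it had to differ, and it is among the 3 counted as risen. Lpxn rose by 1.05 (adjusted p = 0.000337). Parvg, a parvin of blood cells, fell by 3.23 (SE 0.16, adjusted p = 3.7e-05), Zyx, or zyxin, by 1.90 (adjusted p = 3.7e-05) and Rsu1, listed through its earlier levels alone, by 1.20 (adjusted p = 0.00105).

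Ligands were tested for 5 of 18 list members. Icam1 and Icam2, both ligands of LFA-1, moved apart at 120 min. Icam1 had 209 RPKM in the mutant and 179 RPKM in WT at 120 min, against 29.3 to 49.4 RPKM at 0 min, a change of 2.29 (SE 0.22, adjusted p = 0.000157). Icam2 had 4.91 RPKM in the mutant and 4.90 RPKM in WT at 120 min, against 26.2 to 41.5 RPKM at 0 min, a change of -2.60 (SE 0.13, adjusted p = 3.7e-05). In all 2 ligands rose and 2 fell at 120 min, beside 19.3% higher and 40.4% lower among all genes. Among them were Jam3, by 0.95 (adjusted p = 0.00541, and 0.0548 without the WT 120 min library), and Thy1, by -1.96 (adjusted p = 7.89e-05). In the mutant 2 were higher and 0 lower, beside 6.19% higher and 3.24% lower among all genes. Cdh1, which encodes E-cadherin, the ligand of the receptor of Itgae and Itgb7, had 2.12 to 5.76 RPKM in Ikaros-Zn4-/- libraries and 0.104 to 0.443 RPKM in WT libraries, a difference of 2.10 (SE 0.20, adjusted p = 2e-04). Like Tln2 it is listed through its mutant level alone, so it had to differ, and it is among the 2 counted as higher. Thy1, which is also on the list of CD8 T cell markers and is counted in both, was higher by 0.43 (adjusted p = 0.0318). That call ended after quantile normalization, with adjusted p over the alternatives up to 0.0996. It also ended when any library but Ikaros-Zn4-/- 30 min replicate 1 or WT 0 min replicate 2 was left out.

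Transforming growth factor beta and Runx3 are known to raise Itgae in CD8 T cells, so genes of that pathway were listed too. In the mutant 1 of 12 was higher, beside 6.19% of all genes. It was Skil, a repressor of Smad proteins, by 0.66 (adjusted p = 0.0176). Its call was lost without Ikaros-Zn4-/- 0 min replicate 2, either WT 0 min library or either 120 min library, with adjusted p up to 0.0572. At 120 min, when Itgae fell, 8 of 12 rose and 1 fell, with a median of 0.78 beside -0.32 for all genes. Of all genes 19.3% were higher and 40.4% lower on this scale, and the split was nearly even after median ratio scaling, as given above. Skil rose by 2.39 (adjusted p = 0.000106), the inhibitory Smad7 by 1.82 (adjusted p = 9.3e-05), the receptor Tgfbr1 by 1.54 (adjusted p = 8.87e-05), the ligand Tgfb1 by 1.33 (adjusted p = 0.00112) and the repressor Ski by 1.03 (adjusted p = 0.00252). Runx3 itself changed by -0.51 (adjusted p = 0.0289). That call was lost after median ratio scaling and without Ikaros-Zn4-/- 0 min replicate 2, WT 0 min replicate 1 or either 120 min library, with adjusted p up to 0.595.

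**Figure D4:**
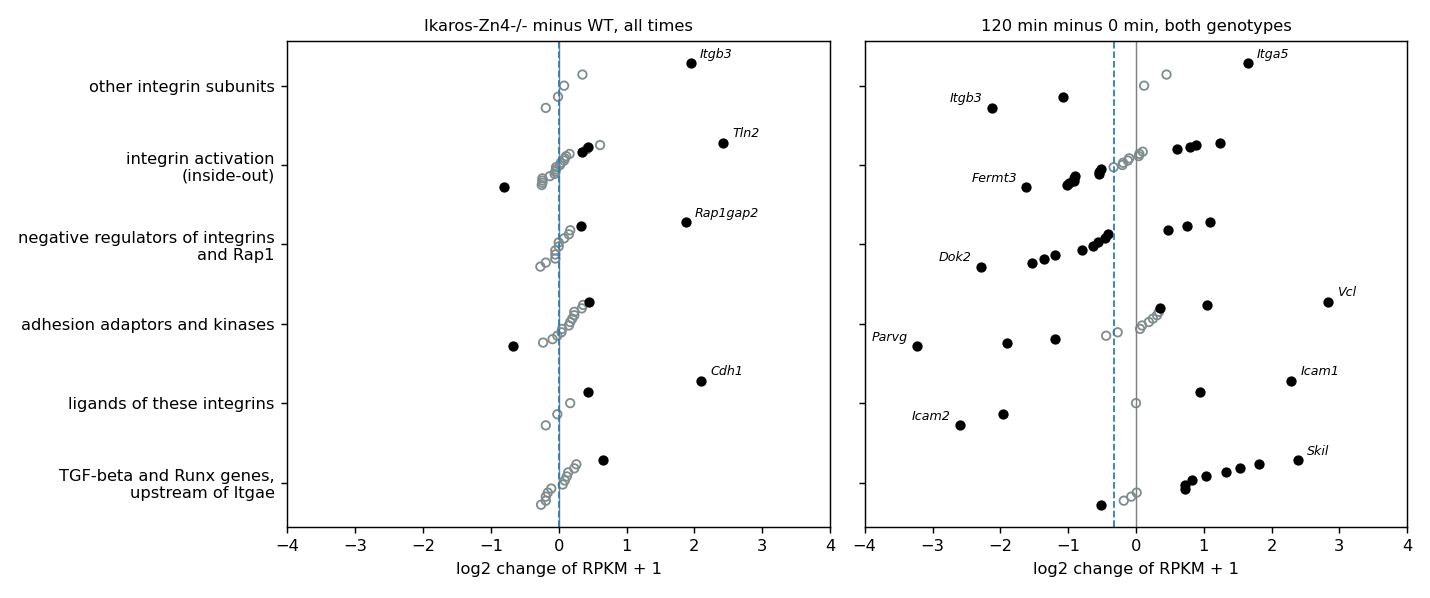
Each point is a gene of a list (vertical axis), placed by its log2 change (horizontal axis), for Ikaros-Zn4-/- minus WT over all times on the left and 120 min minus 0 min on the right; filled points were called at an adjusted p below 0.05, and the dashed line is the median of all genes. On the left Itgb3 lies at 1.95 and Rap1gap2 at 1.87, beside Tln2 and Cdh1, which are in the table only through their mutant level. On the right Parvg lies lowest at -3.23, and Vcl, in the table only through its 120 min level, lies highest.

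The genes whose pattern over the 10 libraries was most like that of each subunit were looked up among genes whose mean was 5 RPKM or more. Pearson's r of log2 values is given as a description, as all genes share the same libraries, times and genotypes. Stra13 and Parvg each had r = 0.996 with Itgb7, and Parvg is on the adaptor list above. The cytotoxic granule genes Nkg7 and Ctsw had r = 0.990 and r = 0.989 with Itgae. For Itgal they were Hsd11b1 (r = 0.997) and Cops6 (r = 0.996), and for Itgb2 Ctsa (r = 0.997) and Sit1 (r = 0.995). Most like Itga4 were Pacs1 (r = 0.993) and Ephx1 (r = 0.983), and most like Itga6 Osbpl8 (r = 0.993) and Npat (r = 0.992). Itgb1 had Cyfip2 (r = 0.979) and Ank (r = 0.969), and Itgam had Cd163l1 (r = 0.986) and Ass1 (r = 0.980).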

How the data were processed

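RNA of sorted CD8+ T cells was sequenced in 10 single-end libraries made with the TruSeq RNA kit v2, per the labels' protocols. The authors deposited RPKM values, 1 column per library. TopHat2 2.0.12, TopHat and HTSeq 0.6.1 and the builds mm10 and GRCm38 are named in the submitters' processing notes, while what each did, and which gene lengths and filter were applied, is not stated in the labels or notes.

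From these values log2(RPKM + 1) was taken for the 12203 genes averaging 0.5 RPKM or more and fitted in limma 3.58.1 (R 4.3.3) with an intensity trend. Stimulation contrasts, genotype at single times and the difference of responses used 1 mean per group over all 10 libraries (4 residual degrees of freedom), and genotype over all times used an additive model (6). The single 120 min libraries were assumed to vary like the others. P-values are two-sided and Benjamini-Hochberg adjusted over all genes. They reflect only how much these libraries vary. A pseudocount lowers the fold change of low genes.

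Depths were found as the library totals that turn the RPKM values into whole reads with GENCODE M21 exon lengths. Of values below 200 reads, 65.7% to 71.2% then came out whole to 0.01 read, where chance gives 2%. The summed table came to 94.0% to 101% of a depth, so depths or lengths are slightly off. For Itgal, Itgam and Itgb7 another length than that of GENCODE gave whole reads in all libraries (within 0.05 read). Intervals cover counting error only.

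The fit was tested on simulated data. Tables and figures were made in Python 3.11.15 (pandas 2.3.3, numpy 2.4.6, matplotlib 3.10.9). Subunits, lists and the rule for named genes were chosen with earlier results of these data known. The rule named all 8 subunits, up to 5 called genes per list and comparison by size of change, and the genes most like each subunit. The alternatives were another pseudocount, other filters, other scalings, a spread from the compared groups only, leaving out each library, a replicate block and limma-voom on recovered reads, the last chosen after seeing the data.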

Additional observations from a re-analysis of the deposited data

How the results depend on the processing

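The number of subunits called at 120 min against 0 min stayed within 6 to 7 and that of genotypes over all times within 4 to 7 under all alternatives run. At 30 min against 0 min in both genotypes (1 called) there were 0 after median ratio scaling, 3 after quantile normalization, 0 with a spread from the compared groups and 2 with limma-voom on recovered reads, and 0 to 1 without single libraries. In WT alone (0 called) there was 1 after median ratio scaling, 1 after quantile normalization and 1 with limma-voom. At 0 min Ikaros-Zn4-/- against WT (1 called) gave 0 with a spread from the compared groups, 4 with limma-voom and 0 to 1 without single libraries. At 30 min (1 called) it gave 2 with no filter, 2 after median ratio scaling, 0 with a spread from the compared groups, 4 with limma-voom and 0 to 1 without single libraries. The causes were not tested. No subunit that was called turned its direction. Itgam has no value under the filter at 2 RPKM, and the additive model none with a spread from the compared groups.

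Libraries of different groups share replicate numbers. Deviations of replicate 1 from its group mean correlated between groups with r from 0.04 to 0.23 over genes, positive in all 6 pairs of groups. The main fit does not pair samples by these numbers, and whether they mark a shared batch was not tested. Both 120 min libraries carry number 2 in their descriptions, which were used here. The title of the mutant one gives number 1 instead, and that of the WT one gives none. If the descriptions hold, such a batch could not be fully told apart from stimulation for 120 min. With a replicate block 2 subunits were called at 30 min in both genotypes, 2 in WT at 30 min, 2 between genotypes at 0 min and 3 at 30 min. The background counts of all genes called moved too. At 30 min in both genotypes they numbered 3484 with the replicate block and 2317 without it, and 779 without WT 0 min replicate 2. Over alternatives they ran from 0 to 973 in the mutant alone (334 called), from 13 to 1891 in WT alone (736 called), from 96 to 635 between genotypes at 0 min (302 called), from 80 to 612 at 30 min (319 called) and from 706 (without WT 30 min replicate 1) to 1567 over all times (1150 called). From 30 to 120 min 5885 were called, and 3339 without the mutant 120 min library. For Itgam depth sets the precision, at 8 to 137 reads per library.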
